A study of Homo sapiens with 4 samples.

Results

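The human Mediator complex was followed through the 33 genes that encode its subunits, found as the rows whose Ensembl identifier carries a subunit's symbol in GENCODE release 44. All 33 were among the 58735 genes listed. Of these, 32 had a mean of at least 0.5 FPKM (fragments scaled by gene length and library total) over the 4 libraries and were tested, and only MED12L fell below that level. 26 genes encode the core of the complex, and 7 (CDK8, CDK19, CCNC, MED12, MED12L, MED13 and MED13L) encode the kinase module. The RNA came from NB4-labelled cells, a line derived from acute promyelocytic leukemia, and nothing in the labels distinguishes the groups apart from the treatment. The 2 control libraries were labelled as untreated. The other 2 libraries came from cells given GNE-987, a degrader compound that couples proteins it binds with a ubiquitin ligase. The dose of 25 nM and the exposure of 24 h were taken from a legend in the paper, not from the sample labels. No source states that the libraries of a group came from separate cultures, so P values measure only the spread between these libraries.

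Mediator is a large assembly that carries signals from DNA-bound transcription factors to RNA polymerase II. The head and middle modules contact the polymerase, MED14 runs through the complex as its backbone, and the tail offers docking surfaces for activators. The kinase module, built from CDK8 or CDK19 with cyclin C, MED12 or MED12L, and MED13 or MED13L, binds the core reversibly, and core complexes without it can engage the polymerase. Mediator is abundant at super-enhancers, the setting in which this compound was studied.

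The sequences upstream of the RefSeq starts of 6 subunit genes are shown because these genes lie at opposite ends of the changes described below. MED26, MED19 and CDK8 were the largest increases on the deposited scale (CDK8 turned negative with GAPDH scaling), and MED1, MED12 and MED10 were among the larger decreases. They were chosen after their values were seen. Each is the 250 bases before the RefSeq start on GRCh38.p14, printed 5′ to 3′ on the strand of the gene. The RefSeq start can differ from the GENCODE start, and the MED26 window lies wholly inside the GENCODE gene (16574907 to 16629062). Capitals mark a GC box (GGGCGG, read as CCGCCC on the other strand), a CCAAT box (CCAAT, read as ATTGG) or an E-box (CACGTG), searched on both strands.
MED26 (chr19:16628205-16628454, minus strand): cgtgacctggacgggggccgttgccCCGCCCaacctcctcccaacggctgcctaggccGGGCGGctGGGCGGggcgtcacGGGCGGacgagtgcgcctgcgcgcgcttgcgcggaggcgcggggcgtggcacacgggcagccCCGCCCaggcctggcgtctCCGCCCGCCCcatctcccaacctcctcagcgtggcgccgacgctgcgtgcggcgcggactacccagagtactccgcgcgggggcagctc
MED19 (chr11:57712216-57712465, minus strand): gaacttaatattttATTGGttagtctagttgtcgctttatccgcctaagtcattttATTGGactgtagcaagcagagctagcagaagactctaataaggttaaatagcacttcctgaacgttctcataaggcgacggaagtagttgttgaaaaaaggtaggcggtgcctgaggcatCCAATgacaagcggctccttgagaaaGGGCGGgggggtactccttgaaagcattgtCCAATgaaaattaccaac
CDK8 (chr13:26253879-26254128, plus strand): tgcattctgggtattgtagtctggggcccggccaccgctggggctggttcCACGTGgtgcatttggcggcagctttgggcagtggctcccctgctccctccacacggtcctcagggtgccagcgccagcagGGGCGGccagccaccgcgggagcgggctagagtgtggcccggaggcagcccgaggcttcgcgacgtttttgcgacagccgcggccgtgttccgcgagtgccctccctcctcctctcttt
MED1 (chr17:39451264-39451513, minus strand): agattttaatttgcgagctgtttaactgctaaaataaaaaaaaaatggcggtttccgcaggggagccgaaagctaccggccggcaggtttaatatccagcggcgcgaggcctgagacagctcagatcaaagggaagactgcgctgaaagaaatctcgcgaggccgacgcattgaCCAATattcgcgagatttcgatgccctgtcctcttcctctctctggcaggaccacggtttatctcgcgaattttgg
MED12 (chrX:71118346-71118595, plus strand): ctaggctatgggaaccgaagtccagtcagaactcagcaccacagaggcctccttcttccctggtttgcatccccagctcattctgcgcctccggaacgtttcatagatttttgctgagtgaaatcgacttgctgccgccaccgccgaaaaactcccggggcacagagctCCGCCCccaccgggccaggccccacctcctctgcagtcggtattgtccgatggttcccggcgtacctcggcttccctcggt
MED10 (chr5:6378548-6378797, minus strand): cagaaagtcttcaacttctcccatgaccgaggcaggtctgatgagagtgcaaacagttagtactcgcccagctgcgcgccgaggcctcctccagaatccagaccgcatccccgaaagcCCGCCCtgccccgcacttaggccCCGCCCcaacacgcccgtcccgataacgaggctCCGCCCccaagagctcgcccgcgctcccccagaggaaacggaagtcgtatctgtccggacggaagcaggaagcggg

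The MED26 window held 7 GC boxes, counting overlapping matches, and was 78% G and C. The MED19 window held 4 CCAAT boxes and 1 GC box at 43.6% G and C, and the CDK8 window held 1 E-box and 1 GC box at 68.8%. Among the 3 genes that fell, MED10 had 3 GC boxes, MED12 had 1 GC box and MED1 had 1 CCAAT box. An entry was available for 25 of the 33 members. These 25 genes had 30 promoters in the table. A GC box was present in 17 of the 30 (56.7%) and in 42.6% of all 35116 promoters, and a CCAAT box in 11 (36.7%) against 32.0%. The ETS core CCGGAAG was found in 6 (20%) against 8.52%, the TATA box TATAAA in 2 (6.67%) against 10.7%, and the E-box in 2 (6.67%) against 6.35%. The YY1 core AAGATGGC was found in 2 (6.67%) against 1.36%, the cyclic AMP response element TGACGTCA in 1 (3.33%) against 1.65%, and the NRF1 letters TGCGCA in 3 (10%) against 6.89%. A match of letters is a description of the window, and binding was not measured here.

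Several properties of the libraries moved with the treatment. Whole reads worked back from the FPKM steps came to 17649748 and 17431989 on genes in the control libraries and to 11373281 and 11840622 in the GNE-987 libraries. Mitochondrial genes took 4.13% and 5.01% of these reads in control and 17.04% and 16.6% with GNE-987. All 11 erythroid markers exceeded 1 FPKM in some library of each group, and their summed level was 444 to 477 FPKM in control and 748 to 864 FPKM after GNE-987. Of 9 promyelocyte markers, 7 stayed under 1 FPKM in both control libraries, CTSG was listed at 0 in all 4 libraries, and the list summed to 9.56 to 10.98 FPKM in control and 29.7 to 32.5 FPKM after GNE-987. MPO, the defining granule enzyme of promyelocytes, was at 0.0246 and 0 FPKM in control and at 11.8 and 11.3 FPKM after GNE-987, while the erythroid regulator GATA1 went from 124 and 122 FPKM to 15.1 and 12.5 FPKM. Of 6 lymphoid markers, 5 were under 1 FPKM in both control libraries, and the list summed to 16.2 to 17.2 FPKM in control and 43.6 to 44.2 FPKM after GNE-987. The control libraries therefore lacked most defining markers of the labelled cell type. The part of these differences in the values below was not tested. In bulk RNA, fewer cells of a kind and less RNA per cell cannot be told apart.

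The size of each change, and the sign of several, depended on scaling. The deposited values were divided by library totals that did not match the reads on genes. The median log2 fold change (GNE-987 against control, on log2(FPKM + 0.1)) was 0.17 over the 16668 tested genes and -0.29 over the 10996 protein-coding genes among them. Relative to the deposited scale, the median of all genes shifted by -0.42 with quantile normalization, by -0.76 with scaling to the recovered reads and by -1.77 with scaling to GAPDH, which served as the qRT-PCR reference in the study. GAPDH itself was at 398 and 432 FPKM in control and at 1501 and 1499 FPKM after GNE-987. Higher genes made up 57.5% of all calls on the deposited scale, 43.7% with quantile normalization, 38.3% with recovered reads and 23.7% with GAPDH.

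Most Mediator subunits that passed the test were lower with GNE-987, and a few were much higher. At an unadjusted P under 0.05 and a change of more than 2-fold, 4 of the 32 tested members were higher (12.5%), where 33.6% of all tested genes and 24% of protein-coding genes were. On the same rule 14 members were lower (43.8%), against 24.9% of all tested genes and 31.7% of protein-coding genes. With a Benjamini-Hochberg adjusted P under 0.05 in limma and no fold limit, 6 members were higher and 19 lower. On that rule 41.5% of all tested genes were higher and 36.1% lower, and among protein-coding genes 35.2% were higher and 47.8% lower. The share of lower members was thus above the background and the share of higher members below it on both rules, as a description of the list with no test. The median log2 fold change of the 32 members was -0.91, which lay 0.62 below the median of protein-coding genes. The split of 4 higher to 14 lower members became 3 to 15 with quantile normalization, 2 to 19 with recovered reads and 1 to 28 with GAPDH. Much of that move was shared by other genes, since the share of protein-coding genes called lower went from 31.7% to 39.9%, 51.2% and 72.8%, against 59.4% of members with recovered reads and 87.5% with GAPDH.

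In control cells the tail subunits MED24, MED16 and MED15 stood at the top, with means of 26.4 ± 0.467, 24.9 ± 1.53 and 24.8 ± 0.715 FPKM (SD, n = 2). MED16 and MED15 did not differ beyond this spread. Of the 33 members, 9 exceeded a mean of 10 FPKM in control, and 3 (MED7, MED17 and MED12L) were under 1 FPKM. The median subunit was at 6.28 FPKM in control and at 2.91 FPKM after GNE-987, and the summed level of all 33 was 279 and 277 FPKM in control against 239 and 230 FPKM after GNE-987. The order of the subunits was partly rebuilt, with a Spearman rho of 0.579 between the group means over the 33 genes, given as a description since the genes share libraries. MED26 moved from ranks 27 and 28 in the control libraries to ranks 2 and 1 in the treated ones, MED19 from 22 and 23 to 4 and 3, and CDK8 from 11 and 12 to 1 and 4. MED8 went the other way, from rank 6 in both control libraries to ranks 23 and 22.

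**Figure D1:**
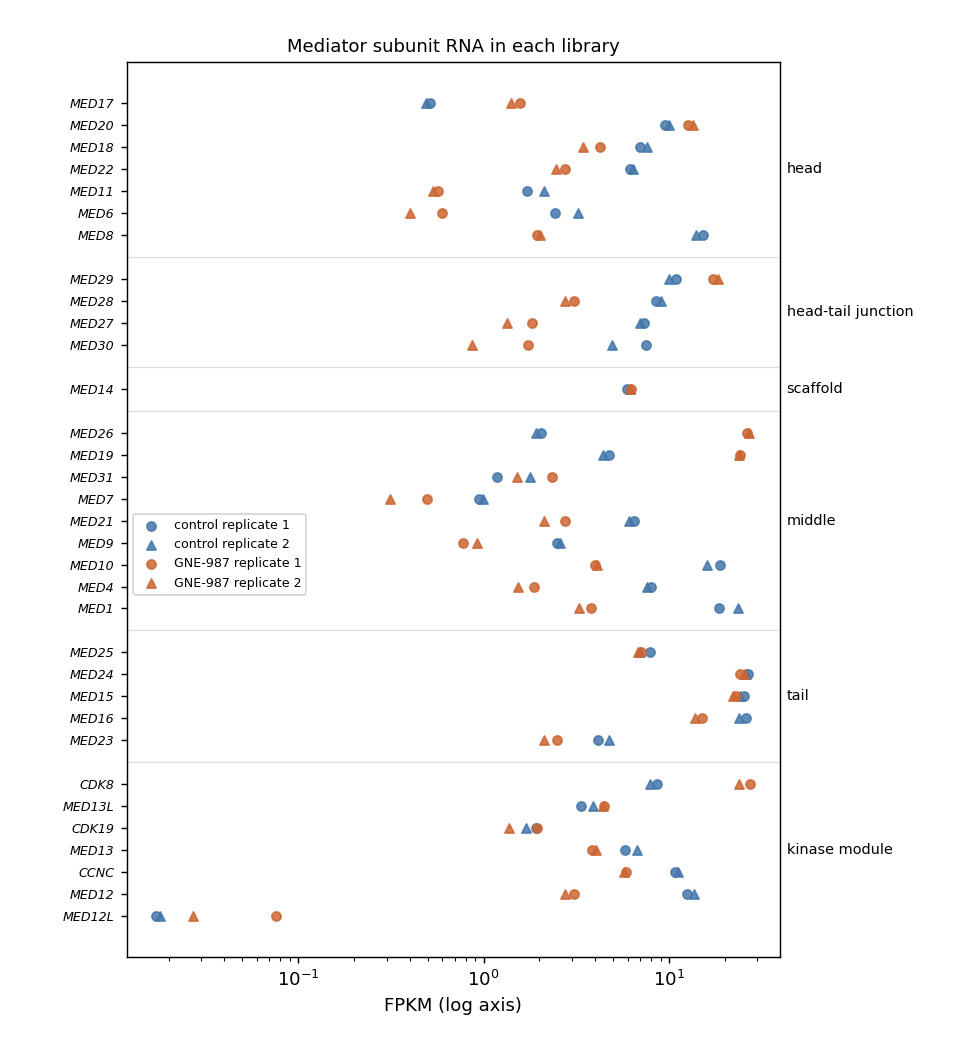
FPKM of each Mediator subunit in the 4 libraries, on a log axis, grouped by module; circles are replicate 1, triangles replicate 2, blue the control and orange the GNE-987 libraries. MED26, at 2.05 and 1.93 FPKM in control, sits at 26.4 and 27.0 FPKM after GNE-987, and MED8, at 15.2 and 14.0 FPKM in control, sits at 1.95 and 2.01 FPKM.

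The middle module held the largest increase and several of the larger decreases. Of its 9 subunits, 2 rose (22.2%) and 6 fell (66.7%), where 24% and 31.7% of protein-coding genes did. The median log2 fold change of the module was -1.35. MED26 (ENSG00000105085, chromosome 19, 16574907 to 16629062, minus strand, GRCh38) is the subunit that recruits elongation factors to the complex. It was at 2.05 and 1.93 FPKM in control, from 251 and 227 recovered reads, and at 26.4 and 27.0 FPKM after GNE-987, from 1177 and 1268 reads. Both treated libraries were far above both controls, and the mean rose 13.4-fold, from 1.99 ± 0.0849 to 26.7 ± 0.383 FPKM (SD, n = 2). On the log2 scale this change was 3.68 ± 0.0673 (SE; limma, Benjamini-Hochberg adjusted P = 0.000106), and it was 3.42, 2.90 and 1.87 with quantile, read and GAPDH scaling. MED26 accounted for 0.866% and 0.830% of the summed FPKM of the 26 core genes in control and for 13.7% and 14.3% with GNE-987.

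MED19 (ENSG00000156603, chromosome 11, 57703710 to 57712221, minus strand), also a middle module subunit, was at 4.77 and 4.43 FPKM in control and at 24.2 and 23.8 FPKM after GNE-987. The groups were far apart, and the mean rose 5.22-fold (log2 2.36 ± 0.0649 SE; limma, Benjamini-Hochberg adjusted P = 0.000158). With GAPDH scaling the log2 fold change kept its sign but was 0.53, under the fold limit. MED31 was at 1.18 and 1.78 FPKM in control and at 2.33 and 1.51 FPKM after GNE-987, so the groups overlapped and no difference was detectable on the deposited scale (with GAPDH the log2 fold change was -1.39). MED31 shares 58.4% of its exon bases with TXNDC17 on the opposite strand, and since the library kit does not mark strand, reads of these genes cannot be told apart where they overlap. TXNDC17 was at 9.24 and 9.31 FPKM in control and at 23.5 and 24.5 FPKM after GNE-987.

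MED1 (ENSG00000125686, chromosome 17, 39404285 to 39451272, minus strand), the subunit that binds nuclear receptors, had the largest decrease of the module. It was at 18.6 and 23.6 FPKM in control, from 3142 and 3830 reads, and at 3.80 and 3.28 FPKM after GNE-987, from 233 and 212 reads. The mean was 5.97-fold lower (log2 -2.54 ± 0.155 SE; limma, Benjamini-Hochberg adjusted P = 0.000538). A lncRNA on the opposite strand, ENSG00000266469, shares 8.76% of the exon bases of MED1. It was listed at 22.5 and 26.2 FPKM in control and at 4.31 and 3.82 FPKM after GNE-987. Without strand, reads of MED1 and of this lncRNA cannot be told apart where they overlap. Within a library, MED26 stood at 0.110 and 0.0815 times the level of MED1 in control and at 6.95 and 8.23 times with GNE-987, a ratio that no single factor per library can move.

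The other middle subunits that fell were lower in both treated libraries than in both controls. MED4 went from 8.01 and 7.65 to 1.88 and 1.54 FPKM (log2 -2.14 ± 0.128 SE), and MED10 from 18.9 and 16.0 to 4.01 and 4.10 FPKM (log2 -2.07 ± 0.102 SE). MED9 went from 2.48 and 2.59 to 0.778 and 0.926 FPKM (log2 -1.47 ± 0.151 SE, and -0.93 with a pseudocount of 1, within the fold limit). MED21 and MED7 form the flexible hinge of the middle module. MED21 went from 6.49 and 6.06 to 2.75 and 2.11 FPKM (log2 -1.35 ± 0.157 SE), and MED7 from 0.939 and 0.993 to 0.493 and 0.311 FPKM (log2 -1.11 ± 0.279 SE). MED7 rested on 12 and 8 reads in the treated libraries, and its call was lost when control replicate 1 (-1.15), control replicate 2 (-1.07) or GNE-987 replicate 2 (-0.85) was left out, and with a pseudocount of 1 (-0.49).

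In the head module, which sits against the polymerase, 1 of 7 subunits (MED17, 14.3%) rose past the fold limit on the deposited scale. MED17 was within that limit with the other scalings. On the deposited scale 4 subunits fell (57.1%), and the median log2 fold change was -1.24. Of protein-coding genes 24% rose and 31.7% fell. MED8 (ENSG00000159479, chromosome 1, 43383917 to 43389808, minus strand), which anchors MED18 and MED20 to the head, had the largest decrease of all members. It was at 15.2 and 14.0 FPKM in control, from 947 and 840 reads, and at 1.95 and 2.01 FPKM after GNE-987, from 44 and 48 reads. All treated values lay far below the controls, with a mean 7.39-fold lower (log2 -2.82 ± 0.0802 SE; limma, Benjamini-Hochberg adjusted P = 0.000164).

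MED17 (ENSG00000042429, chromosome 11, 93784227 to 93814963, plus strand), the central subunit of the head, was at 0.515 and 0.490 FPKM in control and at 1.57 and 1.40 FPKM after GNE-987. It rose 2.95-fold on the deposited scale (log2 1.39 ± 0.178 SE; limma, Benjamini-Hochberg adjusted P = 0.00341), but its log2 fold change was 0.68 with recovered reads, 0.47 with quantile normalization and -0.26 with GAPDH, and none of these 3 passed the fold limit. The recovered reads were 197 and 180 in control and 218 and 205 with GNE-987. Among the head genes it had the lowest FPKM in control, a value that depends on the gene length used, since MED11 had fewer reads there (58 and 69).

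MED6 went from 2.44 and 3.21 to 0.595 and 0.403 FPKM (log2 -2.29 ± 0.26 SE), MED11 from 1.71 and 2.11 to 0.567 and 0.537 FPKM (log2 -1.62 ± 0.187 SE), and MED22, the partner of MED11, from 6.16 and 6.36 to 2.75 and 2.45 FPKM (log2 -1.24 ± 0.0971 SE). In each of the 3 the treated libraries were below the controls. MED11 had 58 and 69 reads in control and 7 in each treated library, and with a pseudocount of 1 its log2 fold change was -0.90, within the fold limit. MED18 and MED20, which form the movable jaw of the head, differed in sign. MED18 went from 6.97 and 7.59 to 4.27 and 3.42 FPKM, log2 -0.91 ± 0.138 (SE; limma, Benjamini-Hochberg adjusted P = 0.0056), a decrease within the fold limit on the deposited scale and past it with recovered reads (-1.69), with GAPDH (-2.72) and without GNE-987 replicate 1 (-1.07). MED20 was at 9.49 and 10.01 FPKM in control and at 12.7 and 13.5 FPKM after GNE-987, log2 0.42 ± 0.0682 (SE; limma, Benjamini-Hochberg adjusted P = 0.00676) on the deposited scale, and its sign turned with recovered reads (-0.37) and with GAPDH (-1.42).

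Of the 4 subunits at the junction of head and tail, 3 fell (75%, against 31.7% of protein-coding genes) and 1 did not. MED30 was at 7.48 and 4.90 FPKM in control and at 1.74 and 0.865 FPKM after GNE-987 (log2 -2.21 ± 0.412 SE), from 248 and 156 reads and then 21 and 11 reads. On the log2 scale this was the largest standard error among the members that fell. Its call was lost without control replicate 1 (-1.90) or without GNE-987 replicate 2 (-1.74). MED27 went from 7.36 and 6.97 to 1.82 and 1.34 FPKM (log2 -2.13 ± 0.171 SE), and MED28 from 8.55 and 9.07 to 3.07 and 2.74 FPKM (log2 -1.57 ± 0.0941 SE). MED28 shares 32.1% of its exon bases with FAM184B on the opposite strand, which was at most 1.57 FPKM. MED29 stood apart from the other 3, at 10.8 and 10.03 FPKM in control and at 17.2 and 18.5 FPKM after GNE-987. Its log2 fold change was 0.77 ± 0.0735 (SE; limma, Benjamini-Hochberg adjusted P = 0.00154) on the deposited scale, -0.025 with recovered reads and -1.07 with GAPDH.

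MED14 (ENSG00000180182, chromosome X, 40648305 to 40735858, minus strand), the backbone of the complex, was at 5.91 and 6.15 FPKM in control and at 6.23 and 6.18 FPKM after GNE-987. The groups differed by less than the standard error (log2 0.04 ± 0.0669 SE; limma, Benjamini-Hochberg adjusted P = 0.606), and its sign turned with recovered reads (-0.74) and with GAPDH (-1.78). Against this backbone gene, MED26 stood at 0.346 and 0.313 times its FPKM in the control libraries and at 4.24 and 4.36 times with GNE-987.

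Among the modules with several subunits, the tail had the narrowest range of changes on the deposited scale. None of its 5 subunits passed the fold limit in limma, where 24% of protein-coding genes were called higher and 31.7% lower. At an unadjusted P under 0.05, 0 were higher and 2 lower. With the fold limit, limma-voom on the recovered reads called 0 higher and 2 lower, against 15.9% and 51.8% of protein-coding genes. With GAPDH scaling all 5 were called lower, as were 72.8% of protein-coding genes. MED24 was at 26.8 and 26.1 FPKM in control and at 24.2 and 25.3 FPKM after GNE-987 (log2 -0.10 ± 0.0488 SE). MED15, which binds lipid regulators of the SREBP family, was at 25.3 and 24.3 FPKM and then at 23.0 and 22.1 FPKM (log2 -0.14 ± 0.0513 SE). MED25, a docking site of viral and cellular activators, was at 7.93 and 6.95 FPKM in control and at 7.08 and 6.84 FPKM after GNE-987, with overlapping groups. The 2 lower subunits were MED16, from 26.0 and 23.8 to 15.0 and 13.9 FPKM (log2 -0.78 ± 0.075 SE), and MED23, which is bound by ELK1, from 4.17 and 4.73 to 2.50 and 2.11 FPKM (log2 -0.92 ± 0.136 SE). Together MED15, MED16 and MED24 made up 28.0% and 26.8% of the summed FPKM of the 33 genes in control and 26.0% and 26.6% with GNE-987.

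**Figure D2:**
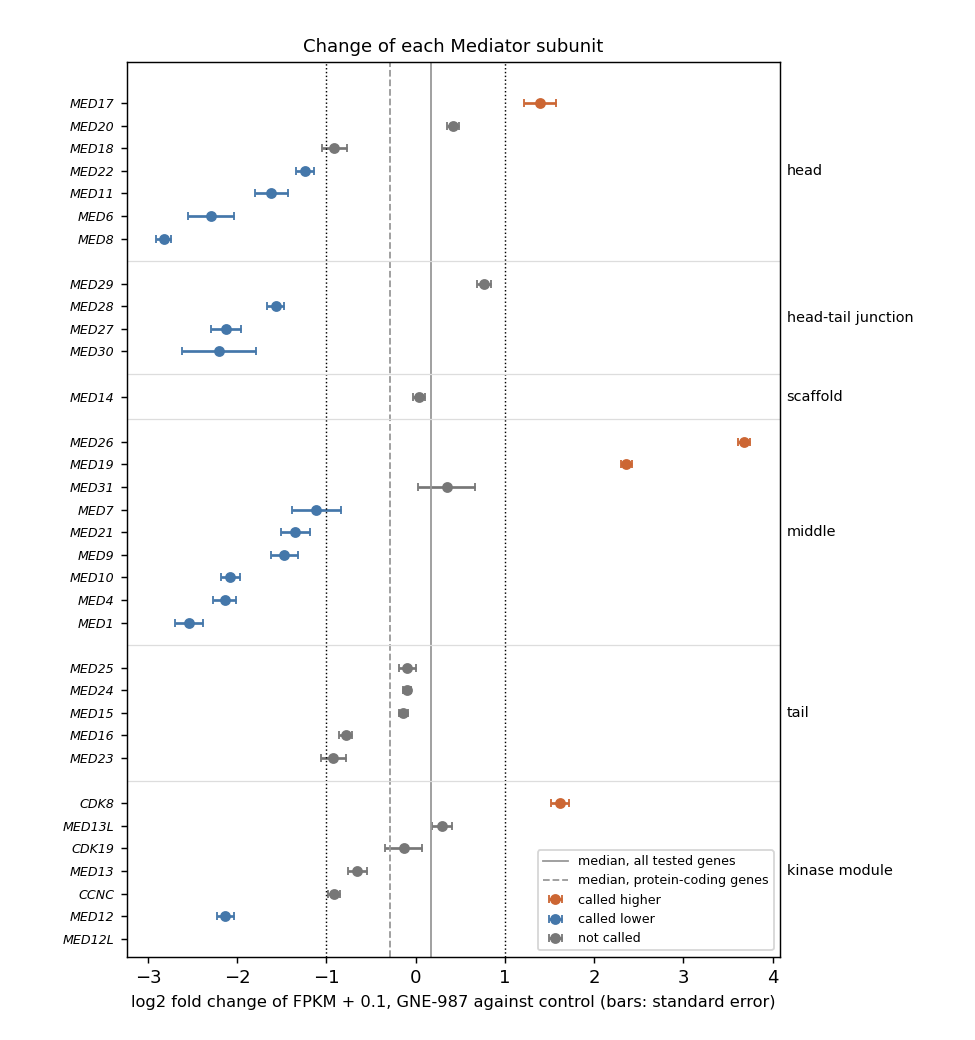
Log2 fold change of FPKM + 0.1 (GNE-987 against control) of each tested subunit on the deposited scale, with bars for the standard error; orange and blue points passed P under 0.05 and the fold limit, dotted lines mark that limit, and the grey lines mark the medians of all tested and of protein-coding genes. On this scale MED26 (3.68), MED19 (2.36), CDK8 (1.62) and MED17 (1.39) lie right of the limit, of which CDK8 and MED17 turn to -0.22 and -0.26 with GAPDH scaling, and the 5 tail subunits lie within it.

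In the kinase module, on the deposited scale, 1 of 6 tested subunits rose and 1 fell (16.7% each), where 24% and 31.7% of protein-coding genes did. The other 4 stayed within the fold limit, 2 of them lower at an unadjusted P under 0.05. The median log2 fold change was -0.39. CDK8 (ENSG00000132964, chromosome 13, 26254104 to 26420982, plus strand), the catalytic subunit, was at 8.58 and 7.95 FPKM in control, from 699 and 622 reads, and at 27.5 and 23.8 FPKM after GNE-987, from 812 and 743 reads. The groups did not overlap, and the mean rose 3.10-fold on the deposited scale (log2 1.62 ± 0.0968 SE; limma, Benjamini-Hochberg adjusted P = 0.000513), while the log2 fold change was 0.83 with recovered reads and -0.22 with GAPDH. Its paralog CDK19 was at 1.91 and 1.70 FPKM in control and at 1.93 and 1.38 FPKM after GNE-987, with overlapping groups (log2 -0.13 ± 0.211 SE; limma, Benjamini-Hochberg adjusted P = 0.586).

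MED12 (ENSG00000184634, chromosome X, 71118543 to 71144103, plus strand), which activates the kinase together with cyclin C, was the subunit of the module that fell. It went from 12.6 and 13.7 FPKM, or 2151 and 2242 reads, to 3.08 and 2.75 FPKM, or 191 and 180 reads. Both treated libraries were far below the controls, with a mean 4.50-fold lower (log2 -2.13 ± 0.0952 SE; limma, Benjamini-Hochberg adjusted P = 0.000294). Its paralog MED12L was near the floor of detection, at 0.0172 and 0.0179 FPKM in control and at 0.0758 and 0.0269 FPKM after GNE-987, which correspond to 5, 5, 8 and 3 reads, and it was not tested.

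CCNC, which encodes cyclin C, went from 10.7 and 11.2 to 5.85 and 5.72 FPKM, log2 -0.91 ± 0.0637 (SE; limma, Benjamini-Hochberg adjusted P = 0.000715), short of the fold limit on the deposited scale and past it with recovered reads (-1.70) and GAPDH (-2.74). MED13, which links the module to the core, went from 5.78 and 6.71 to 3.82 and 4.04 FPKM, log2 -0.65 ± 0.107 (SE; limma, Benjamini-Hochberg adjusted P = 0.00724), and -1.43 and -2.46 under the same 2 scalings, past the limit. Its paralog MED13L was at 3.34 and 3.88 FPKM in control and at 4.45 and 4.42 FPKM after GNE-987, log2 0.29 ± 0.108 (SE; limma, Benjamini-Hochberg adjusted P = 0.0687), with the sign turned by recovered reads (-0.48) and by GAPDH (-1.51).

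Ratios within a library are not moved by a factor applied to the whole library. CDK8 stood at 4.50 and 4.67 times the FPKM of CDK19 in control and at 14.2 and 17.3 times with GNE-987. It was below its partner cyclin C in control (0.800 and 0.707 times) and above it with GNE-987 (4.69 and 4.16 times). Against MED12 the ratio went from 0.682 and 0.582 to 8.92 and 8.66, and against MED13 from 1.49 and 1.18 to 7.18 and 5.89. MED13 stood at 1.73 times MED13L in each control library and at 0.859 and 0.914 times in the treated ones, so the order of this pair in FPKM differed between the groups. That order depends on the gene lengths used. In recovered reads MED13L was above MED13 in all 4 libraries, with 2870 and 3205 against 1686 and 1882 in control. With GNE-987 it had 1390 and 1458 reads against 405 and 452. MED12 exceeded MED12L 731-fold and 762-fold in control and 40.6-fold and 102-fold with GNE-987, with exact 95% intervals for counting error of 313 to 2254, 326 to 2349, 20.2 to 95.3 and 34.3 to 499. In each of these pairs the control and GNE-987 values did not overlap, and with 2 libraries against 2 an exact permutation test cannot give a P below 0.333.

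**Figure D3:**
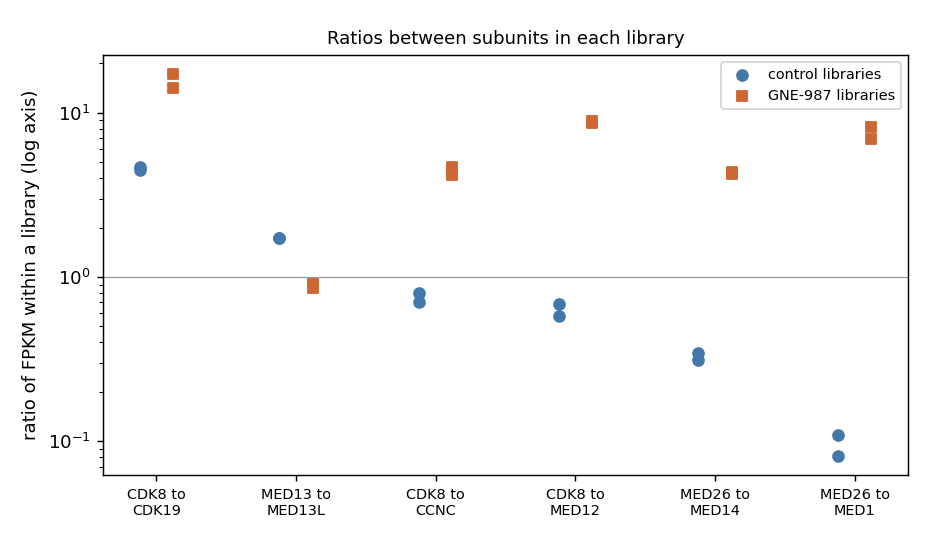
Ratio of the FPKM of pairs of subunits within each library, on a log axis; blue circles are control and orange squares GNE-987 libraries, and the grey line marks equal levels. The ratio of CDK8 to cyclin C lies at 0.800 and 0.707 in control and at 4.69 and 4.16 with GNE-987, and that of MED13 to MED13L at 1.73 in each control library, against 0.859 and 0.914 with GNE-987.

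The changes of core and kinase module overlapped widely. Of the 26 core genes, 3 rose (11.5%) and 13 fell (50%), where 24% and 31.7% of protein-coding genes did. The core median log2 fold change was -1.02, or -0.72 relative to protein-coding genes. The kinase module had a median of -0.39, or -0.10 relative to protein-coding genes, over 6 tested genes that reached from -2.13 to 1.62. Per library, the mean log2(FPKM + 0.1) of the kinase module minus that of the core was -0.0115 and 0.0331 in control and 0.380 and 0.423 with GNE-987. The treated libraries were the higher ones, and with 2 libraries against 2 the difference could not pass an exact test. CDK8 (log2 1.62) was the only kinase module gene that rose past the fold limit, and this mean was not taken without it. It is therefore not shown to hold for the module as a whole. Among the 4 higher members, MED26 and MED19 kept their direction under all scalings tried, and CDK8 and MED17 turned negative with GAPDH. The 14 lower members kept their sign under all of these scalings.

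**Figure D4:**
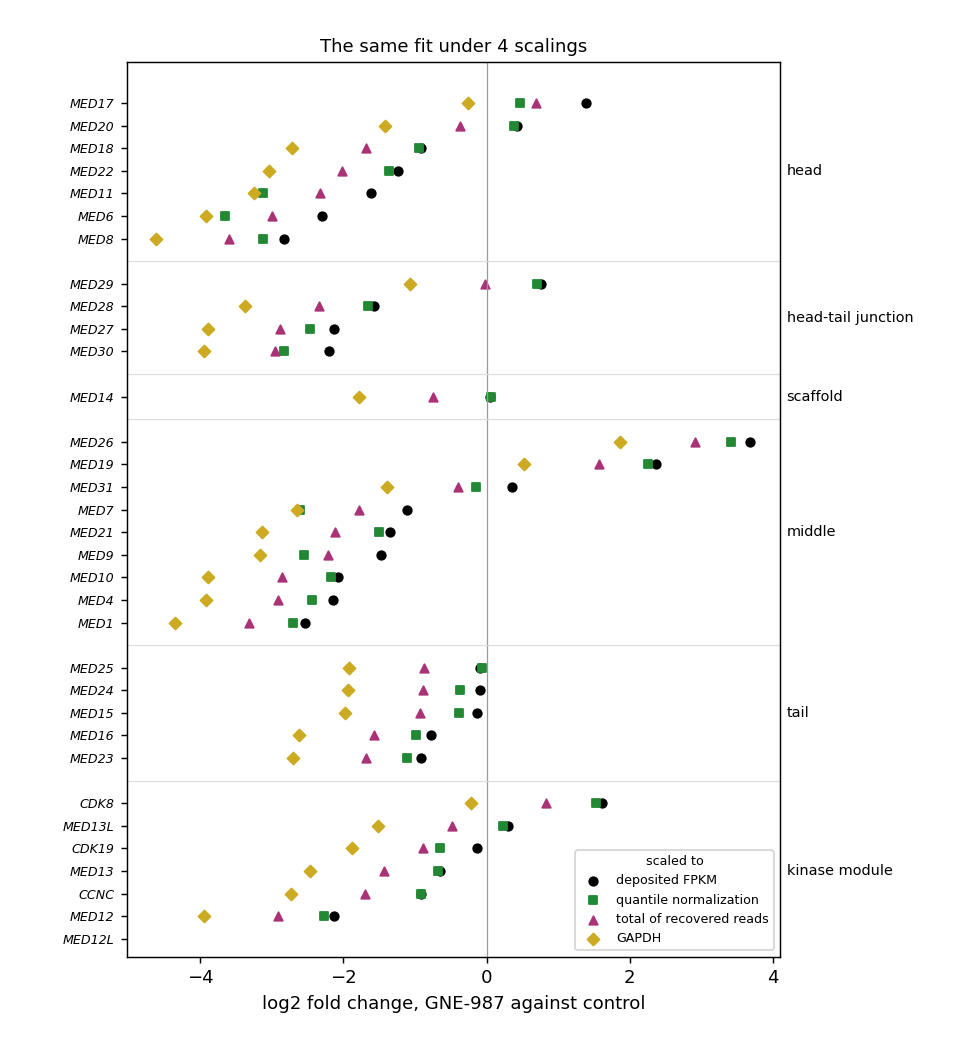
Log2 fold change of each tested subunit under 4 scalings of the same fit: deposited FPKM (black circles), quantile normalization (green squares), total of recovered reads (purple triangles) and GAPDH (yellow diamonds). Scaling to reads or to GAPDH shifts the members almost in parallel, and of the 9 members above 0 on the deposited scale only MED26 (1.87) and MED19 (0.53) remain above 0 with GAPDH.

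The general transcription factors that assemble with Mediator at promoters held more lower than higher genes, as did protein-coding genes as a whole. Of 31 genes for TBP, TFIIA, TFIIB, TFIIE, TFIIF, TFIIH and the TAF subunits of TFIID, 30 were tested, 3 were higher (10%) and 10 lower (33.3%) on the deposited scale, where 24% and 31.7% of protein-coding genes were, with a median log2 fold change of -0.59. At a Benjamini-Hochberg adjusted P under 0.05 in limma 19 were lower (63.3%, against 47.8%), with recovered reads 20 (66.7%, against 51.2%) and with GAPDH 27 (90%, against 72.8%), and these shares were not compared by a test. The 3 higher genes, each of which turned negative with GAPDH scaling, were the TFIID subunits TAF9, from 38.5 and 36.1 to 102 and 103 FPKM (log2 1.46), TAF10, from 2.14 and 2.23 to 5.39 and 6.39 FPKM (log2 1.38), and TAF12, from 5.65 and 4.06 to 11.5 and 13.6 FPKM (log2 1.37). Their log2 fold changes were 0.67, 0.61 and 0.58 with recovered reads and -0.39, -0.42 and -0.47 with GAPDH. The largest decreases were TAF5, from 6.74 and 7.77 to 1.90 and 1.53 FPKM (log2 -2.02), TAF11, from 22.9 and 20.7 to 5.72 and 5.08 FPKM (log2 -1.99), and ERCC3, a helicase of TFIIH, from 9.96 and 10.7 to 2.61 and 2.69 FPKM (log2 -1.92).

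TFIIH carries the kinase CDK7, which acts on the same polymerase tail as CDK8. None of the 9 tested TFIIH genes was higher past the fold limit in limma (24% of protein-coding genes were), while 2 were at an unadjusted P under 0.05. By limma-voom 0 were called higher, against 15.9% of protein-coding genes. On the deposited scale 5 fell (55.6%, against 31.7%). CDK7 was at 14.7 and 14.2 FPKM in control and at 18.6 and 18.6 FPKM after GNE-987 (log2 0.36, or -0.43 with recovered reads, -0.43 with limma-voom and -1.48 with GAPDH). Its partners in the TFIIH kinase fell, CCNH from 8.34 and 8.45 to 3.03 and 2.46 FPKM (log2 -1.58) and MNAT1 from 3.26 and 3.17 to 1.18 and 0.967 FPKM (log2 -1.51). CCNH and MNAT1 were named after their values were seen.

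Cohesin, the ring that holds enhancers and promoters together and binds Mediator at such sites, was lower throughout most of its list. Of 10 genes for cohesin and its regulators, 0 rose (24% of protein-coding genes did) and 6 fell (60%, against 31.7%). The median log2 fold change was -1.82, and 9 (90%, against 47.8%) were lower at a Benjamini-Hochberg adjusted P under 0.05 in limma. At an unadjusted P under 0.05 the count of higher genes was also 0, as it was in limma-voom, where 15.9% of protein-coding genes were higher. The largest decreases were MAU2, which loads cohesin, from 6.60 and 6.83 to 1.17 and 1.03 FPKM (log2 -2.51), SMC3, from 19.9 and 20.2 to 3.95 and 3.87 FPKM (log2 -2.33), and STAG2, from 15.0 and 15.5 to 3.18 and 3.24 FPKM (log2 -2.22). NIPBL, the loading partner of MAU2, was at 6.26 and 6.77 FPKM in control and at 8.04 and 7.36 FPKM after GNE-987 (log2 0.24 ± 0.0853 SE, and -0.55 with recovered reads).

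Neighbouring and overlapping genes were searched for all 33 members, and those at MED26 and MED17 are described here. Same-strand neighbours before the start were also found for MED28, MED22, MED16, MED29 and MED11, and are not described. SMIM7 lies on the same strand and ends 1.69 kb before the GENCODE start of MED26. It was at 4.89 and 4.60 FPKM in control and at 3.08 and 2.09 FPKM after GNE-987, so it was lower where MED26 was higher. A lncRNA on the opposite strand, ENSG00000279529, shares 8.15% of the exon bases of MED26 and went from 0.847 and 0.682 to 8.14 and 6.96 FPKM. Another gene model on the same strand, ENSG00000141979, shares 27.2% of these bases and was at most 0.0883 FPKM. MED17 shares 88 bases with TAF1D on the opposite strand, which went from 9.09 and 8.29 to 17.3 and 15.2 FPKM. In all, 20 members shared exon bases with another listed gene, and 8 shared over 10% of them, so that their values are uncertain to that extent without strand.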

How the data were processed

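RNA was extracted with Trizol and libraries were made with a TruSeq RNA kit, which does not mark strand. After filtering, reads were mapped with HISAT and compared with DESeq2 by the authors, and the deposited values are FPKM for each gene in each library. The submitters' processing notes name HISAT2 2.0.5 and hg38. The counting program and annotation are not given in the sources used here. Groups came from the sample labels, and no value column was left unused (0).

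Because FPKM are not counts, genes averaging at least 0.5 FPKM over the libraries were tested on log2(FPKM + 0.1) with limma 3.58.1 in R 4.3.3 (intensity trend, no block) over all 4 libraries. Genes were called at an unadjusted P under 0.05 with a fold change over 2 or under 0.5, the limits of the study's methods. The Benjamini-Hochberg adjustment ran over all 16668 genes tested. A fold change on this scale understates the change of low genes.

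Names and positions came from GENCODE release 44, which held 58207 of 58735 identifiers (99.1%). Reads were recovered from the FPKM steps with a tolerance of 0.01 of a read. Of 32895 genes above 0, 17431 (53.0%) came out whole at the annotated length, 12276 (37.3%) at another length and 3188 (9.69%) did not. The deposited values correspond to scaling totals of 23024012 and 22120718 reads in control and 8360488 and 8826052 with GNE-987. Read counts of single members depend on the length found. Intervals cover counting error only.

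Values per library are given for every member, and of the general transcription factor and cohesin lists the 3 largest called changes in each direction were named, with GAPDH. 1 further gene that this rule names is not reported here. CDK7, CCNH, MNAT1, NIPBL, the single marker genes and the overlapping or neighbouring genes were named after their values were seen. MED27 to MED30 were kept apart as the junction of head and tail. The members and lists were chosen with earlier results of these data known, and lists are described without a set test. The alternatives were a pseudocount of 1 or 0.01, quantile normalization, a filter at 1 FPKM or none, scaling to GAPDH or to recovered reads, limma-voom on recovered reads, an adjusted P threshold, a block for the replicate number, and each library left out. For ratios, 0.1 was added to both genes. Promoters came from RefSeq (GRCh38.p14). The steps were tested on simulated data.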

Additional observations from a re-analysis of the deposited data

How the results depend on the processing

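With GAPDH scaling, where 72.8% of protein-coding genes were called lower, 1 member was higher and 28 lower (core 1 and 23, kinase module 0 and 5), general transcription factors were 0 and 27, and 10 cohesin genes were lower. At the adjusted P threshold 2 members were then higher. Scaling to recovered reads and limma-voom (51.2% and 51.8% of protein-coding genes lower) each gave 2 higher members, a kinase module with 0 higher and 3 lower, and general transcription factors with 0 higher and 20 lower. The core median was -0.76 with a pseudocount of 1, -1.24 with quantile normalization, -1.74 with recovered reads, -1.89 with limma-voom and -2.71 with GAPDH. The kinase module median was -0.66, -1.16, -1.20 and -2.17 under the last 4 of these.

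Signs turned with GAPDH for MED17 (-0.26), MED20 (-1.42), MED29 (-1.07), CDK8 (-0.22), MED13L (-1.51), MED31 (-1.39) and MED14 (-1.78). With recovered reads they turned for MED20 (-0.37), MED29 (-0.025), MED13L (-0.48), MED31 (-0.40) and MED14 (-0.74), and with limma-voom for the same members (-0.37, -0.025, -0.49, -0.42 and -0.76). MED31 also turned with quantile normalization (-0.14), and with single libraries left out CDK19 reached from -0.37 to 0.095 and MED25 from -0.19 to 0.0015. The shifts with GAPDH and with recovered reads follow from the factor applied to each library. For the others the cause was not tested.

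Leaving out each library in turn gave 12 to 16 lower and 4 higher members, and a core median of -1.19 to -0.82. With a pseudocount of 1, 11 members were lower, and the kinase module minus the core was -0.0645 and -0.0122 in control and 0.228 and 0.236 with GNE-987. With 0.1 added, CDK8 to CDK19 was 4.32 and 4.47, MED12 to MED12L 108 and 117, and MED13 to MED13L 1.71 in both control libraries, and MED12 to MED12L was 22.4 in GNE-987 replicate 2. Without a filter 13903 genes were called in place of 9750.

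In the labels, libraries with the same replicate number have only that number in common. The deviations of same-numbered libraries correlated at 0.00537, and whether they shared a batch was not tested. With the replicate number as a block, 4 members were higher and 14 lower, no call of the 32 tested members changed, and 9853 genes were called in all. With the block, 18 members were lower at the adjusted P threshold, against 19 without it. Depth limits MED7, MED11, MED30 and MED12L, each with 12 or fewer reads in at least 1 treated library.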
